A study of Mus musculus with 4 samples.

Results

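Chemokines are small secreted proteins that guide moving cells. The genes described here are mouse chemokines and receptors that read them, measured in mammary tumours with and without the receptor tyrosine kinase AXL. The members were the rows of the count tables whose Ensembl gene identifier maps to a protein-coding gene with a chemokine (Ccl, Cxcl, Xcl1, Cx3cl1), chemokine receptor (Ccr, Cxcr, Xcr1, Cx3cr1) or atypical chemokine receptor (Ackr1 to Ackr4) symbol. This gave 59 genes of 38293 gene rows, 37 of them ligand genes and 22 receptor genes. Another 3 rows carry a matching symbol but are not annotated as protein-coding. They are Ccl19-ps1 and Ccl19-ps3, with 0 reads, and Cxcl11, annotated as a polymorphic pseudogene, with 9 and 0 reads in the WT libraries and 5 and 43 reads in the AXL KO libraries.

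All 4 libraries were RNA sequencing libraries from tumours of FVB mice carrying MMTV-Neu, a transgene in which the mouse mammary tumour virus promoter drives the receptor tyrosine kinase Neu in mammary epithelium. The control group, WT, held 2 tumours with intact AXL (AXL+/+), and the AXL KO group held 2 tumours lacking it (AXL-/-). The transgene and the strain were shared by both groups. The animals' age and sex, the cells in which AXL was deleted and whether the tumours of a group came from separate animals are not stated in the sources used here. The p-values therefore measure no more than how far these 4 samples spread, and that spread may be technical.

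Gene read totals ran from 18929743 to 33131739 per library, and AXL KO replicate 2 was the deepest. Values below are CPM, which are gene reads per library scaled to a common total, with library factors from TMM (trimmed mean of M values), and are given for replicate 1 and then replicate 2 of each group. Axl, the deleted gene, measured 61.8 and 35.2 CPM in WT and 4.75 and 4.89 CPM in AXL KO, a log2 difference of −3.33, and the residual reads were not examined further here. With 2 libraries a group, edgeR's quasi-likelihood test with Benjamini-Hochberg adjustment gave even Axl an adjusted p of 0.9997, whereas DESeq2 gave it an adjusted p of 2.23e-13. Of the 14330 genes tested, 0 passed an adjusted p of 0.05 in edgeR (0%), 314 had an unadjusted p under 0.05 (2.19%), and DESeq2 called 16 (0.112%). The epithelial genes Epcam, at 966 to 1342 CPM, and Krt8, at 529 to 928 CPM, were present in every library as the tumour label implies, while 3 basal markers summed to at most 3.74 CPM in any library.

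Chemokines are named by the spacing of the cysteines near their amino end, as CC, CXC, XC or CX3C, and they act through receptors with 7 membrane-spanning helices that couple to inhibitory G proteins. One chemokine often binds several receptors, and one receptor often reads several chemokines. In mammary tumours they are known for drawing in monocytes (Ccl2 and its receptor Ccr2), T and natural killer cells (Cxcl9 and Cxcl10 through Cxcr3) and neutrophils (Cxcl1 and Cxcl2 through Cxcr2), and for the Cxcl12 and Cxcr4 pair that also acts on tumour cells. Atypical receptors bind chemokines without this G protein signal and remove or carry them.

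Reads were found for most of the family, but 23 of the 59 members were too low to test. Of these, 6 had no read in any library (Cxcl3, Ccl19, Ccl21b, Ccl26, Ccl27b and Cxcr1), and the other 17 reached at most 22 reads in a library, the count of Cxcl5 in WT replicate 2. A count of 0 allows up to 3 reads, or 0.140 and 0.157 CPM in the WT libraries and 0.160 and 0.0900 CPM in the AXL KO libraries, by counting error alone. Counts labelled as not uniquely aligned were 23.2% to 28.1% of all counts, gene and summary lines together, and were kept apart from the gene counts. Whether that label counts reads or their alignments is not stated. The low values of near-identical genes such as Ccl21a and Ccl21b, Ccl19, or Ccl27a and Ccl27b are therefore uncertain.

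No chemokine or receptor passed the test. Of the 36 tested members, 0 had an adjusted p under 0.05 in edgeR, against 0% of all genes, and the adjusted p was 0.9997 for each of them. Unadjusted p-values under 0.05 were found for 2 members in edgeR (2.19% of all genes), Ccl12 (higher in AXL KO) and Cx3cl1 (lower). They were found for 4 members in DESeq2 (3.5% of all genes) and for 3 in limma-voom (1.99% of all genes). Either of those tools made 0 adjusted calls among the members. The log2 difference (AXL KO minus WT) was positive for 23 of the 36 (63.9%) and negative for 13, against 49.7% positive over all genes, and its median was 0.28 against −0.0019. In a comparison not matched for level, the members also scattered more, and the part of low counts in this was not tested. The members' median absolute log2 difference was 0.41 against 0.20 over all genes, and their median standard error was 0.64 against 0.29. The plot of differences shows that these standard errors cross 0 for most members.

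**Figure D1:**
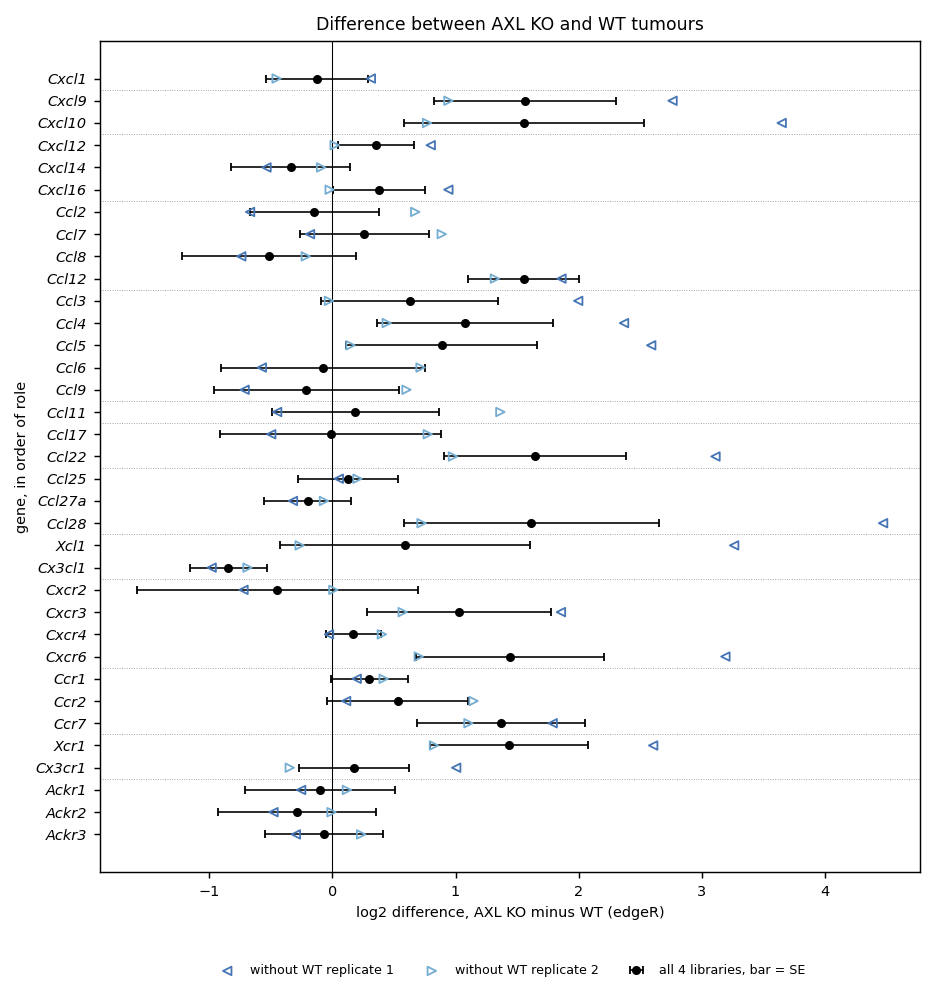
Log2 difference (AXL KO minus WT) of 35 tested members, grouped by role (filled points), with its standard error from edgeR's quasi-likelihood fit of 2 against 2 libraries, and the value without WT replicate 1 or WT replicate 2 (open triangles). With all libraries the values run from −0.85 for Cx3cl1 to 1.64 for Ccl22, and none passed an adjusted p of 0.05.

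For 10 members each AXL KO value exceeded each WT value, where 14.7% of all genes did so. They included the ligands Cxcl9, Ccl12, Ccl4, Ccl22 and Ccl28 and, among the receptors, Cxcr6, Ccr1, Ccr7 and Xcr1. The reverse was found for 2 members, Ccl27a and Cx3cl1, where 14.5% of all genes did so. Single libraries weighed on these counts. WT replicate 2 was the lowest library for 18 of the 36 members (50%, against 35.8% of all genes), and AXL KO replicate 2 was the highest for 19 (52.8%, against 17.2%).

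With 1 library left out the low-count filter was applied anew, and the members were again counted by whether the AXL KO values lay apart from the WT values. Without WT replicate 1, 20 of 39 tested members lay above and 12 below (40.3% and 38.7% of all genes). Leaving out WT replicate 2 gave 17 and 4 of 37 (33.2% and 33.7%). Without AXL KO replicate 1 the counts were 22 and 3 of 38 (25.9% and 26.9%), and without AXL KO replicate 2 they were 13 and 12 of 37 (28.2% and 31.5%). Without any low-count filter, 16 of 53 members lay above and 4 below (15% and 12.7%). With 1 library left out, the excess of members above over members below was widest without AXL KO replicate 1 and nearly gone without AXL KO replicate 2. The median log2 difference of the 36 was 0.25 without WT replicate 1, 0.43 without WT replicate 2, 0.51 without AXL KO replicate 1 and, over the 35 still tested, 0.13 without AXL KO replicate 2. Without WT replicate 1, edgeR called 246 genes at an adjusted p under 0.05 (1.66%) and 3005 at an unadjusted p under 0.05 (20.2%). Of the members, 0 were called in that fit and 16 had an unadjusted p under 0.05, and the smallest adjusted p was 0.0745, for Ccl28. In that fit WT replicate 2 alone stood for WT, and it was assumed to vary as the AXL KO libraries did.

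Cxcl1 was the only one of the 5 neutrophil-attracting CXC members high enough to test. It measured 4.86 and 2.88 CPM in WT and 3.31 and 3.78 CPM in AXL KO. Both AXL KO libraries fell between the WT libraries, and the log2 difference was −0.13 ± 0.41 (SE). Its neighbour Cxcl2 had 5 and 4 reads in WT and 2 and 6 reads in AXL KO, and Cxcl3 had none. Cxcl5 had 3 and 22 reads in WT and 1 and 2 reads in AXL KO. Cxcl15 had 1 and 10 reads in WT and 0 and 6 reads in AXL KO. WT replicate 2 was the high library for both. Cxcr2, the receptor of Cxcl1, Cxcl2 and Cxcl3, measured 0.374 and 0.628 CPM in WT and 0 and 0.630 CPM in AXL KO, with 0 reads in AXL KO replicate 1. Its log2 difference was −0.45 ± 1.14, the largest negative one among the receptors. These levels stood beside few neutrophil markers: 8 marker genes summed to 2.77 to 5.97 CPM per library, Ly6g and Camp had 0 reads throughout, and only Csf3r was testable.

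Cxcl1, Cxcl2 and Cxcl3 lie close together on mouse chromosome 5, and the 120 bases before each start are shown because the 3 genes share a motif there while only Cxcl1 reached a testable level. Sequences are from RefSeq (GRCm38.p6), plus strand, 5′ to 3′, and end at the base before the start. Capitals mark matches on either strand to the kappaB motif GGGNNNTTCC. It is a simplified pattern for the recognition sequence of NF-kappaB, a factor that switches on inflammatory genes. Other forms of this sequence were not searched. Overlapping matches are joined.
Cxcl1, chr5:90891125-90891244: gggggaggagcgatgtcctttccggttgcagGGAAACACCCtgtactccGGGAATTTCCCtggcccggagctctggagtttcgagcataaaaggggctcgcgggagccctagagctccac
Cxcl2, chr5:90903779-90903898: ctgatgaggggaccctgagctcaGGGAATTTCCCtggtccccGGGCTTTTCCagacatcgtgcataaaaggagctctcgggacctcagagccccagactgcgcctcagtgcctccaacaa
Cxcl3, chr5:90785981-90786100: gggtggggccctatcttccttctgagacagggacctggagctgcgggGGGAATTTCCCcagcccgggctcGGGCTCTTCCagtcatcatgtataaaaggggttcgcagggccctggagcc
Each stretch holds the same run of 11 bases, GGGAATTTCCC, in which matches on both strands overlap. Of the 52 promoter windows that RefSeq gave for 45 of the 59 members, 9 held a kappaB match in the 250 bases before the start, against 4.65% of 32851 windows over all genes. A match is a run of letters and not a measured binding site.

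Cxcl9 and Cxcl10, which attract activated T cells and natural killer cells through Cxcr3, were higher on average in AXL KO, with WT replicate 2 far below WT replicate 1. Cxcl9 measured 3.13 and 0.890 CPM in WT and 3.47 and 8.43 CPM in AXL KO. Cxcl10 measured 2.71 and 0.366 CPM in WT and 2.19 and 6.87 CPM in AXL KO. WT replicate 2 was the low library and AXL KO replicate 2 the high one for both genes, and WT replicate 1 and AXL KO replicate 1 were close. The groups did not overlap for Cxcl9 and overlapped for Cxcl10. The log2 difference was 1.56 ± 0.74 for Cxcl9 and 1.56 ± 0.98 for Cxcl10, with unadjusted p-values of 0.086 and 0.170 in edgeR. Without WT replicate 2 it was 0.94 for Cxcl9 and 0.77 for Cxcl10, and without AXL KO replicate 2 it was 0.76 and 0.47. Cxcr3 itself, named here after its values were seen, measured 0.514 and 0.209 CPM in WT and 0.427 and 1.02 CPM in AXL KO.

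Cxcl9 and Cxcl10 are neighbours on chromosome 5 (chr5:92321347-92328079 and chr5:92346638-92348889, GRCm38, minus strand), and Cxcl10 overlaps Art3 on the other strand. The 250 bases before their starts are shown because the genes shared their lowest and highest library and are both known to respond to interferon-gamma. The sequences are from RefSeq (GRCm38.p6), minus strand, 5′ to 3′. Capitals mark the core of the interferon-stimulated response element (ISRE), GAAANNGAAA, and the kappaB motif, on either strand.
Cxcl9, chr5:92328080-92328329: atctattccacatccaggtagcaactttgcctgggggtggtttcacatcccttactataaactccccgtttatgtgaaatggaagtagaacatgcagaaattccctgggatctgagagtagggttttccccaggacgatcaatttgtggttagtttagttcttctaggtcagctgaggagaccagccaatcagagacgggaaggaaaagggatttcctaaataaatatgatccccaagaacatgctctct
Cxcl10, chr5:92348890-92349139: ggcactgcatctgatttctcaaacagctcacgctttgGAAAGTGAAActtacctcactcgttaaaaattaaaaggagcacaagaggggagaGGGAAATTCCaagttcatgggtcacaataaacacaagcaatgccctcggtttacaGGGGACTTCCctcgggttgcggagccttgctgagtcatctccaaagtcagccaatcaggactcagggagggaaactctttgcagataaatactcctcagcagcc
The Cxcl10 window held an ISRE core starting 213 bases before the start and kappaB matches at 159 and 104 bases before it. No match to either motif, or to the gamma-activated sequence TTCNNNGAA, was found in the Cxcl9 window, which says only that these letters are not there. An ISRE core was found in 2.98% of all windows and in 3 of the 52 member windows, and TTCNNNGAA in 7.02% of all windows and in 3 of the 52.

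A list of 12 interferon-gamma genes had the same lowest and highest library, by summed level, as these ligands. Of 10 tested, 8 had a positive log2 difference, 0 were called, and the median was 0.87, against 0.31 without WT replicate 2. WT replicate 2 was the lowest library for 10 of the 10, against 35.8% of all genes. Ido1, which was too low to test, went the other way, with 2 and 46 reads in WT and 4 and 4 reads in AXL KO. Their summed level was 715 and 188 CPM in WT and 828 and 1068 CPM in AXL KO. Gbp2, a guanylate-binding protein induced by interferon-gamma, measured 116 and 15.5 CPM in WT and 139 and 213 CPM in AXL KO. Markers of T cells summed to 20.5 and 3.04 CPM in WT and 10.5 and 14.7 CPM in AXL KO, and those of natural killer cells to 29.5 and 2.67 CPM in WT and 20.1 and 32.03 CPM in AXL KO. The part of these cells in the Cxcl9 and Cxcl10 values was not tested, and in bulk tissue fewer cells of a type and less RNA per cell cannot be told apart.

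**Figure D2:**
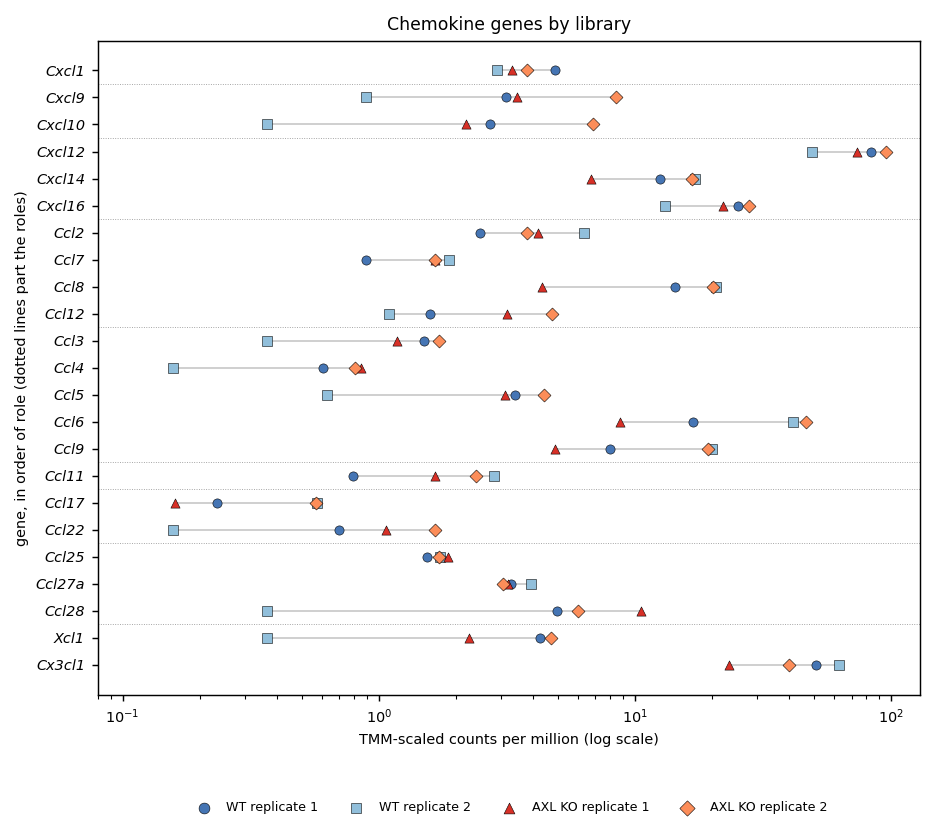
Level of each tested ligand gene in the 4 libraries, in TMM-scaled CPM on a log axis, with WT and AXL KO libraries marked separately. WT replicate 2 is the lowest library for Cxcl9, Cxcl10, Ccl22 and Ccl28, and AXL KO replicate 1 is the lowest for Ccl6, Ccl8, Ccl9 and Cxcl14.

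The 3 other CXC ligands that could be tested were among the most abundant members and overlapped between the groups. Cxcl13 and Cxcl17 were too low to test. Cxcl12, the stromal ligand of Cxcr4 and Ackr3, measured 83.3 and 48.8 CPM in WT and 73.3 and 95.6 CPM in AXL KO, with a log2 difference of 0.35 ± 0.31. Cxcl16, a membrane-bound ligand of Cxcr6 that also takes up oxidised lipoprotein, measured 25.3 and 13.04 CPM in WT and 22.01 and 27.8 CPM in AXL KO, with a log2 difference of 0.38 ± 0.37. WT replicate 2 was the low library for both, and without it the differences were 0.02 and −0.02. Cxcl14, a ligand made by epithelium and fibroblasts, measured 12.5 and 17.2 CPM in WT and 6.73 and 16.6 CPM in AXL KO. Here AXL KO replicate 1 was the low library, and without it the log2 difference moved from −0.34 ± 0.48 to 0.16. Cxcl16 overlaps Zmynd15 on the other strand.

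Ccl12, a ligand of Ccr2 that draws in monocytes, had the smallest p of all members. It lies at chr11:82101845-82103400 (plus strand) among its relatives Ccl2, Ccl7, Ccl11 and Ccl8. Its counts were 34 and 21 reads in WT and 59 and 158 reads in AXL KO, or 1.59 and 1.10 CPM in WT and 3.15 and 4.74 CPM in AXL KO. The AXL KO values both exceeded the WT values, with means of 3.94 ± 1.12 CPM (SD, n = 2) in AXL KO and 1.34 ± 0.347 CPM (SD, n = 2) in WT. The log2 difference was 1.55 ± 0.45, a 2.93-fold higher fitted level, with an unadjusted p of 0.0172 and an adjusted p of 0.9997 in edgeR. Leaving out each library in turn gave log2 differences of 1.202 to 1.86. Because the groups did not overlap, the sign could hardly change in these fits, and its staying positive is no further evidence.

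The neighbours of Ccl12 did not share its order over the libraries. Ccl2, the best known monocyte attractant, measured 2.48 and 6.34 CPM in WT and 4.17 and 3.78 CPM in AXL KO, with the AXL KO libraries between the WT libraries and a log2 difference of −0.15 ± 0.53. Ccl8, a ligand for several CC receptors made by tissue macrophages, measured 14.3 and 20.7 CPM in WT and 4.33 and 20.1 CPM in AXL KO, a log2 difference of −0.51 ± 0.71. AXL KO replicate 1 was the low library for Ccl8, and without it the difference was 0.19. Ccl7 had a log2 difference of 0.26 ± 0.52 and Ccl11, which draws eosinophils through Ccr3, of 0.19 ± 0.68; both are named after their values were seen. Of the 4 monocyte attractants, 1 had groups that did not overlap, where 14.7% of all genes lay above and 14.5% below.

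Ccl6 and Ccl9, which bind Ccr1, differed more within groups than between them. Ccl6 measured 16.8 and 41.5 CPM in WT and 8.71 and 46.4 CPM in AXL KO. Ccl9 measured 7.996 and 20.1 CPM in WT and 4.86 and 19.2 CPM in AXL KO. Replicate 2 was the high library and replicate 1 the low one in both groups, and AXL KO replicate 1 was the lowest of all 4. The log2 differences were −0.08 ± 0.83 and −0.21 ± 0.75, and without AXL KO replicate 1 they were 0.67 and 0.45. Fibroblast markers had the same low library, with sums of 432 and 610 CPM in WT and 193 and 550 CPM in AXL KO. Markers of macrophages and monocytes took another order by sum, 882 and 600 CPM in WT and 760 and 992 CPM in AXL KO. By single genes, WT replicate 2 was lowest for 9 of 10 tested markers of this list. The exception, Mrc1, had the order of Ccl6 and Ccl9, at 20.1 and 31.3 CPM in WT and 10.2 and 35.4 CPM in AXL KO. The part of fibroblasts or of macrophages and monocytes in the Ccl6 and Ccl9 values was not tested.

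The inflammatory ligands Ccl3, Ccl4 and Ccl5, made by activated macrophages, T cells and natural killer cells, are named after their values were seen. Ccl5 measured 3.41 and 0.628 CPM in WT and 3.10 and 4.41 CPM in AXL KO, with a log2 difference of 0.89 ± 0.77 that was 0.15 without WT replicate 2. Ccl3 and Ccl4 were also lowest in WT replicate 2, with log2 differences of 0.63 ± 0.72 and 1.08 ± 0.72. Without WT replicate 2 these were −0.03 and 0.44, and without WT replicate 1 they were 1.996 and 2.37. Neither they nor Ccl5 passed the test.

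Ccl22 had the largest log2 difference of the family at a low level. It attracts regulatory and helper T cells through Ccr4. It measured 0.701 and 0.157 CPM in WT and 1.07 and 1.65 CPM in AXL KO, and the groups did not overlap. The log2 difference was 1.64 ± 0.74, with an unadjusted p of 0.0754 in edgeR, and it was 0.98 without WT replicate 2. Ccl17, the other Ccr4 ligand, lies on the far side of Cx3cl1 from Ccl22 on chromosome 8. It measured 0.234 and 0.576 CPM in WT and 0.160 and 0.570 CPM in AXL KO, with replicate 2 high in both groups (log2 difference −0.01 ± 0.90). Reads of the Ccr4 gene itself numbered 1 in all 4 libraries.

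Among the CC chemokines of epithelia, Ccl28 stood out for its low value in 1 WT tumour. This mucosal ligand of Ccr10 and Ccr3 measured 4.96 and 0.366 CPM in WT and 10.6 and 5.97 CPM in AXL KO. The AXL KO values both exceeded the WT values, but on a log scale the WT libraries were further apart than WT replicate 1 was from either AXL KO library. The log2 difference was 1.62 ± 1.03, and it was 0.72 without WT replicate 2 and 4.47 without WT replicate 1. Ccl27a, a skin ligand of Ccr10 that overlaps Il11ra1 on the other strand, measured 3.27 and 3.93 CPM in WT and 3.205 and 3.06 CPM in AXL KO. Its groups lay apart by a small margin, with a log2 difference of −0.20 ± 0.35. The 3 genes for ligands of the lymphoid homing receptor Ccr7 had 0 or 1 read in every library.

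Cx3cl1, or fractalkine, had the highest level per length of the 12 members with groups that did not overlap. It is anchored in the membrane of epithelium and endothelium and binds Cx3cr1 on monocytes and macrophages. It lies at chr8:94772009-94782427 (plus strand). Its level was 50.8 and 62.7 CPM in WT and 23.2 and 39.9 CPM in AXL KO, from 434 to 1329 reads. The group means were 56.7 ± 8.37 CPM (SD, n = 2) in WT and 31.5 ± 11.8 CPM (SD, n = 2) in AXL KO. The log2 difference was −0.85 ± 0.31, a 1.798-fold lower fitted level, with an unadjusted p of 0.0407 and an adjusted p of 0.9997 in edgeR. Leaving out each library in turn gave log2 differences from −1.31 to −0.51. Its receptor Cx3cr1 measured 70.8 and 27.96 CPM in WT and 50.9 and 60.7 CPM in AXL KO, with both AXL KO libraries between the WT libraries and a log2 difference of 0.18 ± 0.45. Cx3cr1 was therefore lowest in the library in which Cx3cl1 was highest, WT replicate 2. Macrophage markers were lowest in that library too, at 600 CPM, and their part in the Cx3cr1 value was not tested.

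Of the receptors on monocytes and macrophages, neither Ccr1 nor Ccr2 passed the test. Ccr1, a receptor of monocytes and neutrophils for Ccl3, Ccl5, Ccl6 and Ccl9, measured 4.91 and 5.76 CPM in WT and 6.57 and 6.57 CPM in AXL KO (log2 difference 0.30 ± 0.31). Ccr2, the receptor for Ccl2, Ccl7 and Ccl12, measured 4.82 and 9.95 CPM in WT and 6.20 and 15.0 CPM in AXL KO. Replicate 2 was the high library in both groups for Ccr2, as for Ccl6 and Ccl9, and the log2 difference was 0.53 ± 0.57. Ccr1 and Ccr2 lie in 1 cluster on chromosome 9 with Ccr3, Xcr1 and Cxcr6.

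**Figure D3:**
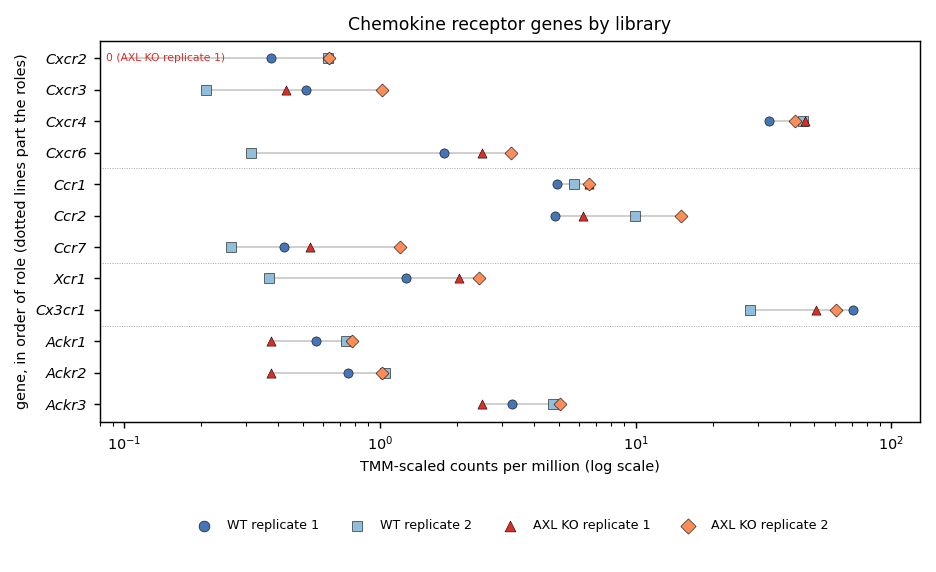
Level of 12 tested receptor genes in the 4 libraries, in TMM-scaled CPM on a log axis, with WT and AXL KO libraries marked separately. Cxcr4 lies between 33.2 and 45.9 CPM in all 4 libraries, while Cx3cr1 spans 27.96 to 70.8 CPM within WT.

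Cxcr4 had the smallest standard error of the 13 tested receptors. It reads Cxcl12 and is carried by leukocytes and by many tumour cells, and it measured 33.2 and 45.0 CPM in WT and 45.9 and 41.9 CPM in AXL KO. The groups overlapped and the log2 difference was 0.17 ± 0.22. Ackr3, the atypical receptor that removes Cxcl12, measured 3.27 and 4.76 CPM in WT and 2.51 and 5.07 CPM in AXL KO, a log2 difference of −0.07 ± 0.48. AXL KO replicate 1 was the lowest library for all 3 tested atypical receptors (Ackr1, Ackr2 and Ackr3). Their log2 differences were −0.10, −0.29 and −0.07, and without AXL KO replicate 1 they were 0.27, 0.18 and 0.33.

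Cxcr6 and Xcr1, receptors of T and natural killer cells and of cross-presenting dendritic cells, are named after their values were seen because their groups did not overlap. Cxcr6 measured 1.78 and 0.314 CPM in WT and 2.51 and 3.24 CPM in AXL KO, with a log2 difference of 1.44 ± 0.77. Xcr1 measured 1.26 and 0.366 CPM in WT and 2.03 and 2.43 CPM in AXL KO, with a log2 difference of 1.44 ± 0.64. WT replicate 2 was the low library for both, and without it the differences were 0.70 and 0.82. Xcl1, the Xcr1 ligand made by natural killer and CD8 T cells, measured 4.26 and 0.366 CPM in WT and 2.24 and 4.71 CPM in AXL KO. Its groups overlapped. The natural killer marker sum had the same low library, at 2.67 CPM against 20.1 to 32.03 CPM elsewhere. The dendritic cell sum did too, at 15.3 CPM against 21.8 to 26.2 CPM. By single genes, WT replicate 2 was lowest for 6 of 6 tested natural killer markers but for only 3 of 6 dendritic cell markers. The dendritic cell marker Batf3 was highest in WT replicate 2, at 2.04 CPM. The part of these cells in the receptor and ligand values was not tested.

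Levels of different genes are compared per kilobase of merged exons. On this scale Ccl8 had the highest mean level of the tested members, at 29.1 CPM per kilobase, followed by Cxcr4 at 22.9, Ccl6 at 15.8, Cx3cr1 at 11.7, Cx3cl1 at 11.2 and Cxcl12 at 9.21 CPM per kilobase. The lowest were Ccl25 at 0.230 and Cxcr2 at 0.134 CPM per kilobase. The order is not firm from gene to gene, because the library ranges overlapped for 34 of the 35 neighbouring pairs. Ccl8 spanned 8.47 to 40.6 CPM per kilobase over the libraries, whereas Cxcr4 spanned only 18.3 to 25.4.

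**Figure D4:**
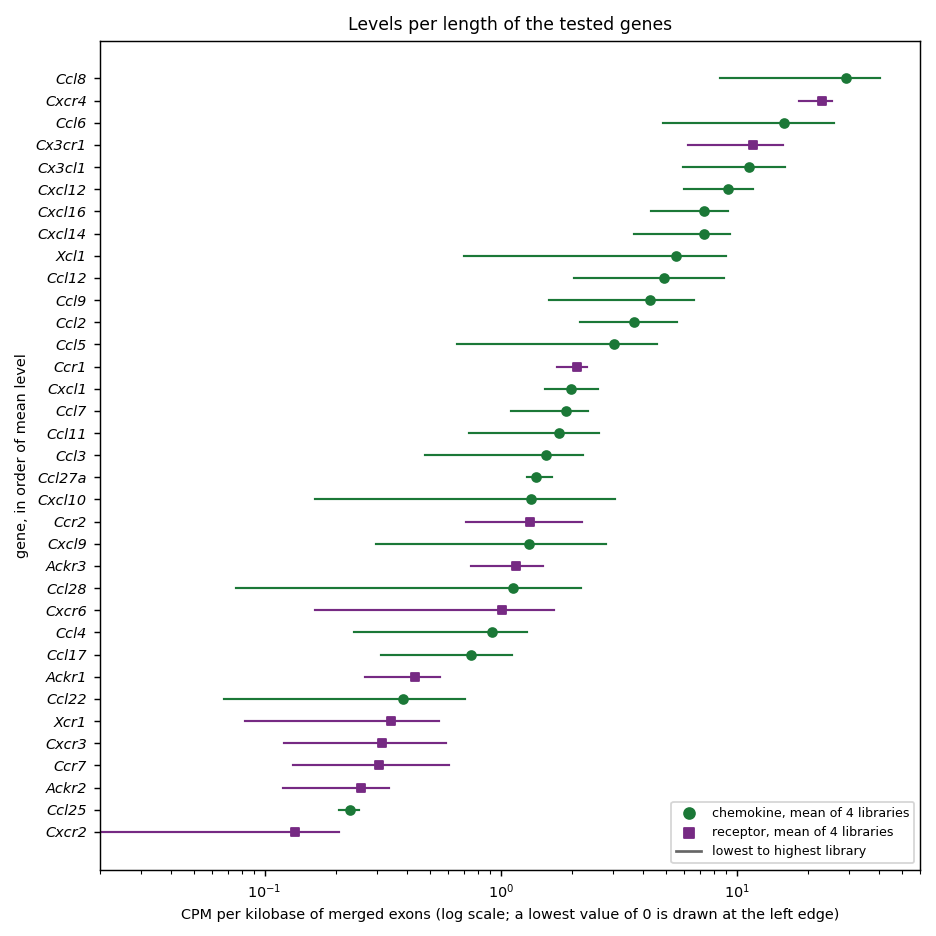
Level per kilobase of merged exons of 35 tested members, in CPM per kilobase on a log axis, with a point for the mean of the 4 libraries and a line from the lowest to the highest library. Ccl8 leads with a mean of 29.1 CPM per kilobase and Cxcr2 is last at 0.134, and neighbours in the order mostly overlap.

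In a chosen list of genes that carry or end the signal of chemokine receptors inside the cell, none passed the test. Of 31 tested, 20 had a positive log2 difference, 0 were called in edgeR and 2 had an unadjusted p under 0.05, and the median was 0.06, which was −0.04 without WT replicate 2 and also without AXL KO replicate 2. Rgs2, which shortens G protein signals, measured 22.1 and 15.8 CPM in WT and 45.9 and 29.7 CPM in AXL KO (log2 difference 0.996, unadjusted p 0.0238). Arrb1, the beta-arrestin that takes receptors from the surface, measured 77.7 and 194 CPM in WT and 49.8 and 61.5 CPM in AXL KO. Its log2 difference was −1.29 (unadjusted p 0.0340), and −0.48 without WT replicate 2. Grk3, a kinase that prepares receptors for arrestin, measured 52.6 and 20.4 CPM in WT and 91.5 and 68.4 CPM in AXL KO.

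Of the proteases that trim or release chemokines, 7 were tested, 4 of them with a positive log2 difference, 0 called and a median of 0.03, which was −0.17 without WT replicate 2 and −0.09 without AXL KO replicate 2. Ctsc, a cysteine protease of leukocytes, had the smallest p of these, at 156 and 103 CPM in WT and 167 and 165 CPM in AXL KO. Inflammatory NF-kappaB targets had 10 tested genes, 6 positive, 0 called and a median of 0.14, which was −0.16 without WT replicate 2 and −0.09 without AXL KO replicate 1. Tnfaip3, a feedback inhibitor of NF-kappaB, measured 11.8 and 11.3 CPM in WT and 7.58 and 8.22 CPM in AXL KO, with a log2 difference of −0.55 (unadjusted p 0.0946).

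Chemokine and related genes outside the naming rule had 6 tested genes, 3 of them positive, 0 called and a median of −0.30. Without WT replicate 2 the median was 0.16. The list includes the CXC chemokines Pf4 and Ppbp, and Ppbp was too low to test. Pf4 measured 1.22 and 3.14 CPM in WT and 0.801 and 1.86 CPM in AXL KO, with a log2 difference of −0.66. Mif, a cytokine that also binds Cxcr2 and Cxcr4, measured 73.1 and 176 CPM in WT and 68.05 and 68.5 CPM in AXL KO. WT replicate 2 alone was high, and without it the log2 difference moved from −0.87 to −0.10. Cmklr1, the receptor for chemerin, had the same high library, with 18.4 and 58.3 CPM in WT and 13.2 and 23.3 CPM in AXL KO. Cd74, which binds Mif at the cell surface, measured 124 and 98.3 CPM in WT and 122 and 291 CPM in AXL KO, and AXL KO replicate 2 was the high library.

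**Figure D5:**
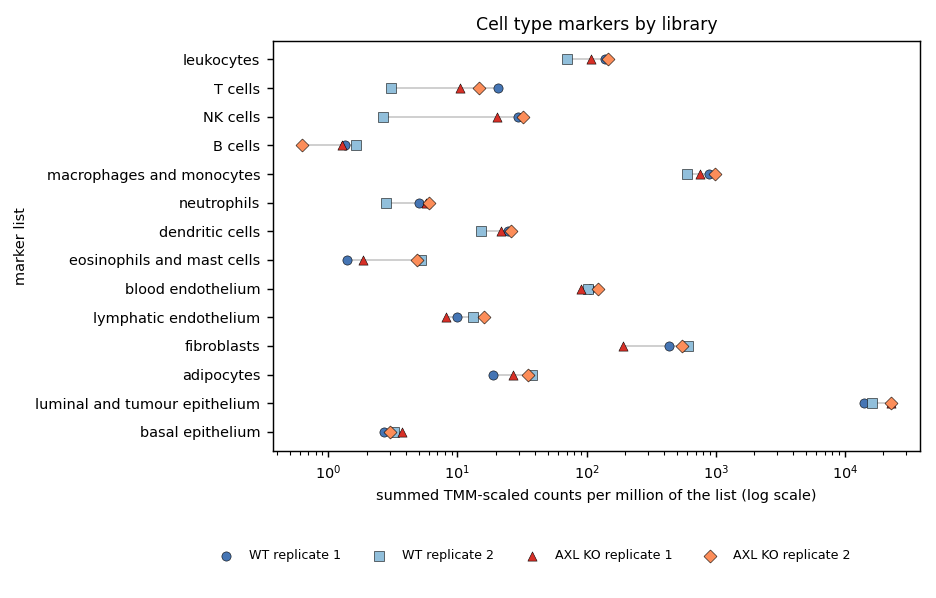
Summed level of each cell type's marker genes in the 4 libraries, in TMM-scaled CPM on a log axis. WT replicate 2 is lowest for T cells (3.04 CPM) and natural killer cells (2.67 CPM), and AXL KO replicate 1 is lowest for fibroblasts (193 CPM).

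Leukocyte markers as a whole (Ptprc, Coro1a and Laptm5) summed to 138 and 70.3 CPM in WT and 108 and 146 CPM in AXL KO. B cell markers summed to 0.630 to 1.62 CPM, and those of eosinophils and mast cells to 1.403 and 5.18 CPM in WT and 1.87 and 4.83 CPM in AXL KO, with Prg2 at 0 reads. Markers of blood endothelium summed to 91.4 to 123 CPM, of lymphatic endothelium to 8.23 to 15.96 CPM and of adipocytes to 18.8 to 38.1 CPM. The part of these cell types in the member values was not tested. Genotype was the only label that separated the groups. A prefix in the sample descriptions was shared by 3 libraries and differed for AXL KO replicate 2, the library that was highest for 19 of the 36 members, and what the prefix stands for is not stated.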

How the data were processed

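Each library was measured by RNA sequencing on an Illumina HiSeq, per the series' design text. The deposited tables hold raw read counts per Ensembl gene, with no normalization by the authors that the values show. The submitters' processing notes name CASAVA 1.8, TopHat2 2.0.10, HTSeq 0.5.3, DESeq2 1.4.5 and GRCm38, without roles; the strand setting and the annotation release are not stated in the labels, so reads of members that overlap a gene on the other strand may be shared. Identifiers were matched to GENCODE M21, and 36345 of 38293 gene rows matched. In that annotation the tested members Cx3cr1, Xcl1 and Ccl25 also overlap a gene on the other strand, besides Cxcl10, Cxcl16 and Ccl27a. Ackr1 overlaps Cadm3 on the same strand, so its counts carry a like limit. The 5 summary lines of each file stayed out of library sizes, of which reads without a feature were 5.27% to 8.11% of all lines.

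Genes were filtered with edgeR 4.0.16 (filterByExpr, by group), leaving 14330, scaled by TMM and tested with edgeR's quasi-likelihood test in R 4.3.3, all 4 libraries in 1 fit, without covariates. P-values were adjusted by Benjamini-Hochberg over all tested genes, with a threshold of 0.05. The common dispersion was 0.0961 (biological coefficient of variation 0.31). Alternatives were DESeq2 1.42.0, limma-voom (limma 3.58.1), other scalings and filters, a replicate block and leaving out each library. Counts of any 2 libraries differed beyond sampling noise (chi-square per degree of freedom 30.3 to 151).

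The members and the gene lists were chosen with earlier results of these data known. Members named were those with a mean of at least 3 CPM, an unadjusted p under 0.05, or 1 of the 3 largest log2 differences in either direction. Of each pathway list, up to 3 genes with the smallest unadjusted p could be named, and of marker lists the first 1 or 2 genes. Other names were chosen after their values were seen. The values of 1 member are not reported here.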

Additional observations from a re-analysis of the deposited data

How the results depend on the processing

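With 2 libraries a group, the precision of each value rests on the spread between them, and the members' standard errors ran from 0.22 for Cxcr4 to 1.14 for Cxcr2. Of 389 values of the 36 tested members under the alternatives, 360 kept their direction and their side of the threshold and 29 reversed. Nearly all reversals came from leaving out 1 library, and the other alternatives refit the same 4 libraries. The cause was not tested. No alternative called a member. The number of all genes called was 16 with DESeq2 and 0 to 246 with 1 library left out. The Axl difference passed the threshold with DESeq2 (−3.33) and without WT replicate 1 (−2.86, adjusted p 0.0207 in edgeR), and it ran from −3.68 to −2.86 with 1 library left out. Without a low-count filter, 16 of 53 members lay above and 4 below (15% and 12.7% of all genes), and with 1 library left out 13 to 22 lay above and 3 to 12 below. Outside the fits with 1 library left out, the only reversed signs were Ccl2 with limma-voom (0.0089) and Ccl17 without a low-count filter (0.014).

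With 1 library left out, log2 differences that changed sign ran from −0.45 to 0.31 for Cxcl1, −1.16 to 0.16 for Cxcl14, −0.022 to 0.94 for Cxcl16, −0.67 to 0.67 for Ccl2, −0.18 to 0.89 for Ccl7, −2.03 to 0.19 for Ccl8, −0.028 to 1.996 for Ccl3, −1.75 to 0.72 for Ccl6, −1.54 to 0.60 for Ccl9, −0.45 to 1.36 for Ccl11, −1.30 to 0.77 for Ccl17, −0.27 to 3.26 for Xcl1, −6.32 to 0.33 for Cxcr2, −0.028 to 0.40 for Cxcr4, −0.26 to 1.15 for Ccr2, −0.35 to 1.01 for Cx3cr1, −0.79 to 0.27 for Ackr1, −1.26 to 0.18 for Ackr2 and −0.69 to 0.33 for Ackr3.

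The replicate numbers were tested as a block, and the correlation of same-numbered libraries' deviations was −0.045. A single correlation with 2 libraries a group cannot decide whether same-numbered tumours were paired. With the replicate block the members' median log2 difference was 0.33 and 0 genes were called.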
